A study of Homo sapiens with 12 samples.

Results

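The genes described here are 43 markers of endothelial identity: transcription factors, junction and surface proteins, secreted and signalling proteins, and genes of the Notch and ephrin pathways. The list was drawn up by name, with earlier results of these data known, and not by a measured value. Each gene was read from its brightest probe set among those with 1 gene symbol, by the mean over all 12 arrays, and all 43 were found among the 18417 genes measured. PECAM1 had 2 such probe sets and every other gene had 1. The cells were EA.hy926, an established human line that is a hybrid of an umbilical vein endothelial cell and the lung carcinoma line A549, so endothelial and epithelial programmes share 1 nucleus. Hi cells were kept in Medium 199 with 9 uM folic acid. Lo cells came from a parallel culture adapted to the same medium with 23 nM folic acid. All cultures received 10% fetal calf serum, were grown to confluence and had fresh medium 24 h before treatment. The 4 groups were Hi control, Hi pemetrexed, Lo control and Lo pemetrexed, each of 3 biological replicates on 1 array apiece, and the treated groups had 0.5 uM pemetrexed, an antifolate drug, for 48 h. The labels name no vehicle for the controls and do not say how many Lo cultures were adapted, so the effect of low folate cannot be told apart from anything else in which these cultures differ.

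Endothelial identity is held by a network of transcription factors in which ETS proteins such as ERG and FLI1 bind the regulatory regions of most endothelial genes, together with GATA, SOX, TAL1 and KLF proteins. ERG drives VE-cadherin (CDH5) and other junction genes, and the junctions in turn keep the cell layer tight. Notch signalling through DLL4 and NOTCH1 or NOTCH4, read out by HEY1 and HEY2, sets arterial against venous character, with the ephrin EFNB2 on the arterial side and its receptor EPHB4 on the venous side.

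The line carried the endothelial markers. PECAM1, CDH5, ERG, TIE1 and TEK lay at or above 10.03 on the log2 scale on every array. VWF, the storage protein of endothelial granules, lay at 8.96 to 9.71 on 6 arrays and at 6.68 to 7.06 on Hi control 3 and the Lo arrays other than Lo control 3. As a guide to what probe sets give for genes these cells are not expected to express, the means of 341 olfactory receptor genes ran from 3.98 at the 5th percentile to 6.82 at the 95th. Probe sets differ in brightness, so this range is a guide and not a detection limit. GJA5, EFNB2, CYYR1, EMCN, HEY2 and TAL1 had means inside it, and KLF4 (6.99) lay just above it. A fall from a group already inside this range cannot be read. Of the epithelial markers, CDH1 (5.45 to 5.89) and EPCAM (5.30 to 6.08) lay inside that range on every array, while KRT7, KRT8 and KRT18 lay between 11.50 and 12.45.

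A pair of control arrays lay apart from their groups. Across all genes, which are not independent, Hi control 3 (the array so labelled) had a mean correlation of 0.995 with the Lo controls against 0.990 with its own group. Lo control 3 had 0.997 with Hi pemetrexed arrays against 0.992 with its own group. In the endothelial genes these arrays lay in the same places. Of the 22 that differed between treated Lo and treated Hi cells, a comparison in which neither array is used for the difference, Hi control 3 was nearer to the mean of Lo controls 1 and 2 for 21, and Lo control 3 was nearer to the mean of Hi controls 1 and 2 for 19. Both arrays kept their labels. Counts over the list and over each pathway list are given with all 12 arrays and again with the 10 arrays left after both were removed. In the text below the 3 values of a group stand in the order of replicates 1, 2 and 3, errors after ± are standard errors of the model, and a gene is called at a limma Benjamini-Hochberg adjusted p under 0.05 over all genes. Calls are those without the replicate number as a block unless the block is named.

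**Figure D1:**
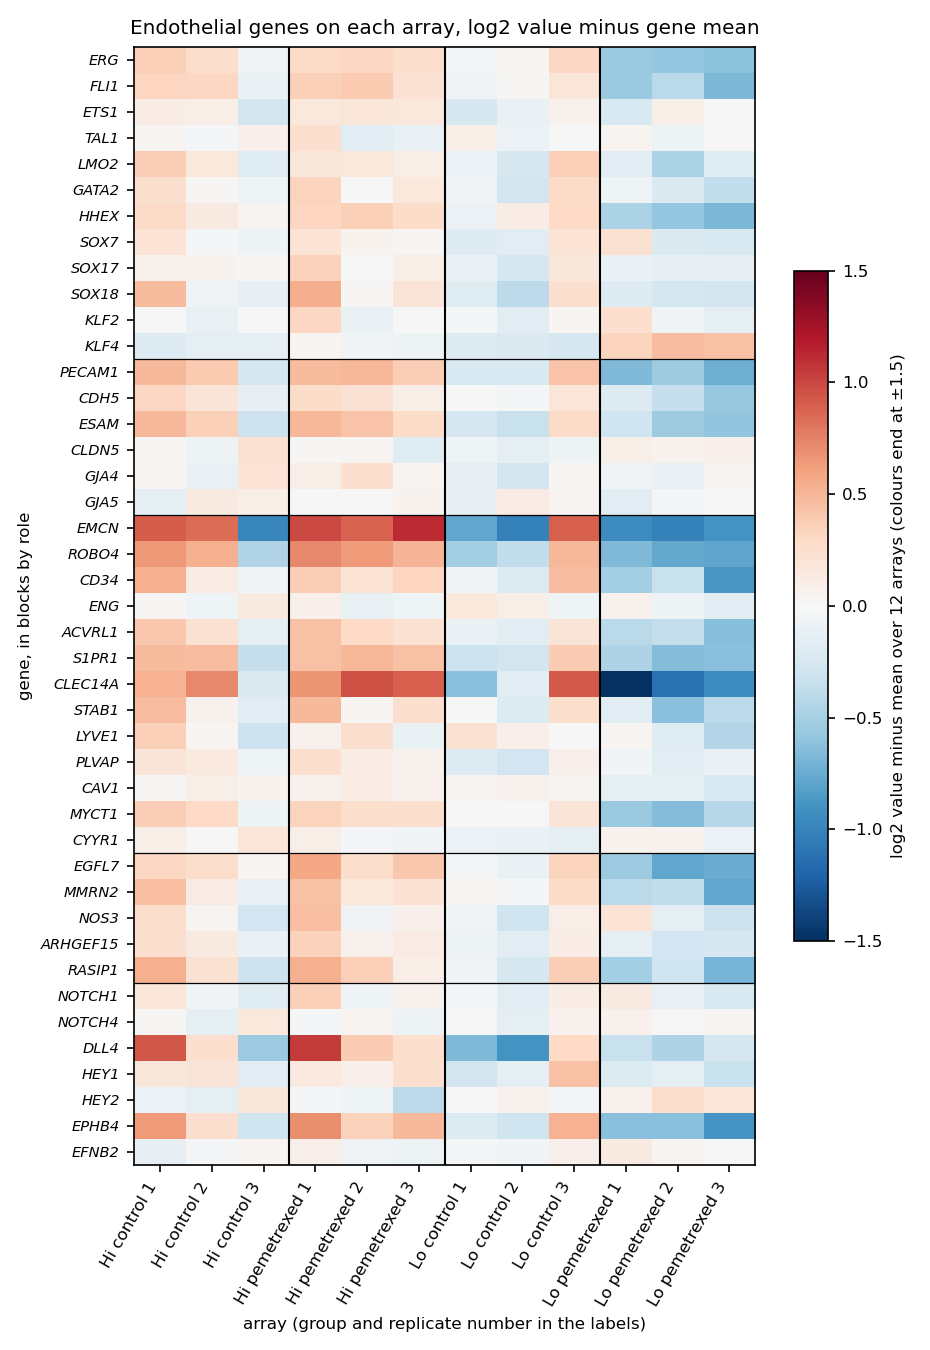
Log2 values of the 43 endothelial genes (rows, in blocks by role) on the 12 arrays (columns), each minus the gene's mean over 12 arrays; red is above and blue below that mean. The Lo pemetrexed columns are blue for most genes and red for KLF4, and the columns of Hi control 3 and Lo control 3 look like the opposite folate level in rows such as EMCN and ROBO4.

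Treated Lo cells were compared with treated Hi cells first, because this comparison does not depend on where the 2 displaced controls belong except through the estimate of the spread. With all 12 arrays 20 of the 43 genes were lower in treated Lo cells and 2 were higher (KLF4 and HEY2), or 51.2% called, where 22.3% of all genes were called. Lower calls made up 46.5% of the list and 11% of all genes, and 11.3% of all genes were higher. The median difference of the list was -0.41, against 0.007 over all genes, and 36 of the 43 lay below 0. Every treated Lo array lay below every treated Hi array for 29 of the 43 genes, where 18.7% of all genes did so, and above for 3 (KLF4, HEY2 and CLDN5), where 18.6% did so. With 10 arrays 27 genes were lower and the same 2 higher, where 27.7% of all genes were called, 14% lower and 13.7% higher. With the replicate number as a block in the 10-array fit 30 were lower and 2 higher, where 35.6% of all genes were called, 18% lower and 17.6% higher, and the added calls were ETS1, LYVE1 and NOS3. Among the largest measured differences were those of the surface receptor CLEC14A (4.15-fold lower), the guidance receptor ROBO4 (2.58-fold lower) and the ephrin receptor EPHB4 (2.32-fold lower). The sialomucin EMCN was 3.86-fold lower, but its treated Lo values lie inside the olfactory receptor range, so the array may not show the whole of that difference. These are bulk values, in which fewer cells carrying a transcript and less transcript per cell cannot be told apart.

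Lo controls were compared with Hi controls to see what differed without the drug. EMCN, DLL4 and ROBO4 had the largest measured control differences, and they were called with 10 arrays only. With all 12 arrays limma called 0 of the 43 genes and 0% of all genes, with 2 of the 43 at an unadjusted p under 0.05 and 387 of all genes. Without the 2 displaced arrays, 14 of the 43 were lower in Lo controls and 0 were higher, or 32.6%, where 7.17% of all genes were called, 3.5% lower and 3.67% higher. The 14 were EMCN, DLL4, ROBO4, CLEC14A, S1PR1, ESAM, EPHB4, PECAM1, ACVRL1, LMO2, PLVAP, HEY1, MYCT1 and ERG. With the replicate number as a block in that fit 24 were lower, where 13.2% of all genes were called, 6.42% lower and 6.73% higher, and the added calls were FLI1, GATA2, SOX18, CDH5, CD34, STAB1, EGFL7, NOS3, ARHGEF15 and RASIP1. Both Lo controls lay below both Hi controls for 32 of the 43 genes in the 10 arrays, where 26% of all genes did so, and above for 2, where 22% did so. With 12 arrays these counts were 2 below, where 3.61% of all genes were, and 0 above, where 2.14% were. The median over the list was -0.31 with 10 arrays and -0.11 with 12. The control calls rest on the removal of both arrays, which leaves 2 arrays in each control group. Both arrays lay nearer the opposite folate level, so removing them favours larger control differences and a smaller spread.

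Pemetrexed in Lo cells moved ERG, FLI1, HHEX, EGFL7 and MYCT1 down and KLF4 up in both fits. With all 12 arrays 10 of the 43 genes fell and 1 rose, or 25.6%, where 10.7% of all genes were called, 5.14% falling and 5.6% rising. Those that fell were ERG, FLI1, HHEX, CDH5, CD34, CLEC14A, CAV1, MYCT1, EGFL7 and MMRN2, and the 1 that rose was KLF4. With 10 arrays 12 fell and 1 rose, where 11% of all genes were called, 5.74% falling and 5.21% rising. CD34 and CAV1 were no longer called (limma adjusted p = 0.0948 and 0.0807), and PECAM1, ROBO4, S1PR1 and EPHB4 were. Leaving out Lo control 3 alone gave 6 calls, where 6.57% of all genes were called, and leaving out Lo pemetrexed 3 also gave 6, where 6.35% were. With the replicate block in the 10-array fit 14 fell and 2 rose, where 18.4% of all genes were called, 9.99% falling and 8.39% rising. The added calls were ACVRL1 and STAB1, which fell, and DLL4, which rose (limma adjusted p = 0.0497). Every treated Lo array lay below every Lo control for 16 genes with 12 arrays, where 14.1% of all genes did so, and for 18 with 10, where 17.8% did so. They lay above for 3 and 7 genes, where 15.7% and 21.6% of all genes did so. The median of the list was -0.21 with 12 arrays and -0.11 with 10, against 0.019 and 0.026 over all genes.

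In Hi cells pemetrexed moved none of these genes past the threshold. Limma called 0 of the 43 and 0% of all genes with 12 arrays and with 10, with 266 and 335 of all genes at an unadjusted p under 0.05. Among the 43, 0 had such a p in either fit. The treated arrays lay below all Hi controls for 0 genes in both fits, where 2.96% and 6.19% of all genes did so, and above for 2 and 3, where 2.48% and 7.03% did so. With 10 arrays all 43 differences lay between -0.13 (LMO2) and 0.22 (CLEC14A), their 95% intervals between -0.52 and 0.61, and the median interval reached 1.17-fold to either side. With 12 arrays EMCN stood at 0.74 ± 0.49, in a comparison whose Hi control group held the displaced array at 5.0. The test of the difference between the responses, Lo minus Hi, called 6 of the 43, or 14%, where 4.81% of all genes were called, 2.24% negative and 2.57% positive. ERG, FLI1, HHEX, MYCT1 and EGFL7 had a more negative response in Lo cells, and KLF4 a more positive one. With 10 arrays the same 6 and CLEC14A were called, where 4.16% of all genes were, 2.14% negative and 2.02% positive. With the replicate block in that fit 10 were called, where 9.44% of all genes were, 4.76% negative and 4.68% positive, and the added calls were PECAM1, MMRN2 and EPHB4.

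**Figure D2:**
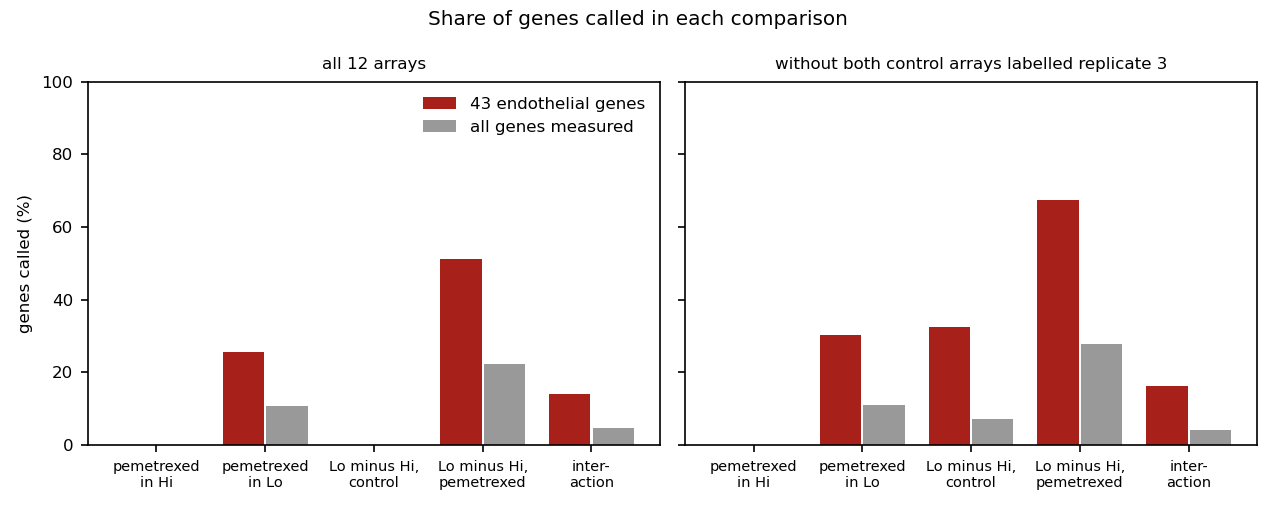
Share of genes called (per cent, limma adjusted p under 0.05) in 5 comparisons, for the 43 endothelial genes (red bars) and for all genes measured (grey bars), with all 12 arrays on the left and without both control arrays labelled replicate 3 on the right. In the comparison of treated cells 51.2% of the endothelial genes and 22.3% of all genes were called with all arrays, and the share for the controls went from 0% to 32.6% once the 2 arrays were left out.

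Among the 12 transcription factors, 3 fell and 1 rose with pemetrexed in Lo cells in both fits, and the other 8 were not called there. The 3 falls are 25% of these factors, where 5.14% of all genes fell with 12 arrays and 5.74% with 10. Between treated cells the same 4 were called with 12 arrays, and 4 more were lower with 10. Lower calls there made up 25% and 58.3% of the factors, where 11% and 14% of all genes were lower. ERG, the ETS factor that maintains endothelial genes and junctions, read 11.30, 11.21 and 10.89 on the Hi control arrays, 11.23, 11.25 and 11.21 on the Hi pemetrexed arrays, 10.93, 10.98 and 11.25 on the Lo control arrays and 10.39, 10.37 and 10.33 on the Lo pemetrexed arrays. The 3 treated Lo arrays lay between 10.33 and 10.39, below all 9 other arrays. ERG changed by -0.69 ± 0.11 with pemetrexed in Lo cells (limma adjusted p = 0.00138) and by -0.59 ± 0.07 with 10 arrays. It was 1.82-fold lower in treated Lo than in treated Hi cells, and its response differed between Lo and Hi cells by -0.78 ± 0.15 (limma adjusted p = 0.0124). Lo minus Hi in controls was -0.30 ± 0.08 with 10 arrays. FLI1, the ETS factor most closely related to ERG, read 10.64, 10.62 and 10.21 on the Hi control arrays, 10.67, 10.71 and 10.53 on the Hi pemetrexed arrays, 10.26, 10.33 and 10.50 on the Lo control arrays and 9.76, 9.91 and 9.64 on the Lo pemetrexed arrays. Here too the treated Lo arrays lay below all others. FLI1 changed by -0.59 ± 0.12 with pemetrexed in Lo cells (limma adjusted p = 0.00646), and the difference between responses was -0.74 ± 0.17. That difference lost its call without Lo control 3, Lo pemetrexed 1 or 3, or Hi pemetrexed 1 or 2 (limma adjusted p up to 0.0727). ETS1, its neighbour on chromosome 11 with 0 protein-coding genes between them in RefSeq, stood at 0.04 ± 0.12 with pemetrexed in Lo cells and was not called in any comparison of either fit.

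HHEX, a homeobox factor of early endothelial and blood development, read 9.35, 9.20 and 9.10 on the Hi control arrays, 9.38, 9.42 and 9.34 on the Hi pemetrexed arrays, 8.97, 9.18 and 9.36 on the Lo control arrays and 8.59, 8.48 and 8.39 on the Lo pemetrexed arrays. The treated Lo arrays were at 8.59 or below, and the 9 others at 8.97 or above. It changed by -0.68 ± 0.10 with pemetrexed in Lo cells (limma adjusted p = 0.000986), and the difference between responses was -0.84 ± 0.14 (limma adjusted p = 0.00615). In controls, Lo and Hi differed by -0.20 ± 0.10 with 10 arrays, which did not pass. KLF4, a factor induced by shear stress and also by stress and growth signals, read 6.80, 6.86 and 6.86 on the Hi control arrays, 7.02, 6.94 and 6.92 on the Hi pemetrexed arrays, 6.78, 6.77 and 6.74 on the Lo control arrays and 7.32, 7.45 and 7.43 on the Lo pemetrexed arrays. Without a block it was the 1 gene of the list that rose with pemetrexed in Lo cells in both fits: the 3 treated Lo arrays lay above all 9 others, 1.56-fold higher than Lo controls (limma adjusted p = 6.12e-05). Its Lo controls (6.74 to 6.78) lie inside the range of the olfactory receptor genes, so the array may not show the whole of that rise. The difference between responses was 0.52 ± 0.09 and held with 10 arrays at 0.50 ± 0.10. KLF2, the shear-stress factor that acts beside KLF4 in endothelium, lay between 10.63 and 11.10 on all arrays and stood at 0.09 ± 0.12 with pemetrexed in Lo cells.

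LMO2, the bridging protein of the TAL1 and GATA2 complex, read 8.25, 8.04 and 7.69 on the Hi control arrays, 8.05, 8.04 and 7.98 on the Hi pemetrexed arrays, 7.79, 7.64 and 8.24 on the Lo control arrays and 7.71, 7.40 and 7.70 on the Lo pemetrexed arrays. Treated Lo cells lay below treated Hi cells and overlapped the Lo controls. Lo minus Hi was -0.44 ± 0.12 in controls and -0.42 ± 0.09 in treated cells with 10 arrays, both called, with -0.11 ± 0.11 for pemetrexed in Lo cells. Its partner GATA2 read 9.03, 8.81 and 8.72 on the Hi control arrays, 9.12, 8.79 and 8.95 on the Hi pemetrexed arrays, 8.73, 8.51 and 9.07 on the Lo control arrays and 8.72, 8.57 and 8.42 on the Lo pemetrexed arrays. Its treated Lo arrays overlapped the Lo controls and lay below the treated Hi arrays. GATA2 was called with 10 arrays between treated cells (-0.38 ± 0.11) and in no other comparison. TAL1 lay between 6.60 and 7.02 and stood at 0.00 ± 0.10 between treated cells. Of the SOXF factors, which act in arterial and lymphatic differentiation, SOX18 read 10.11, 9.58 and 9.51 on the Hi control arrays, 10.17, 9.65 and 9.83 on the Hi pemetrexed arrays, 9.45, 9.24 and 9.87 on the Lo control arrays and 9.44, 9.37 and 9.35 on the Lo pemetrexed arrays. SOX17 read 8.90, 8.90 and 8.86 on the Hi control arrays, 9.19, 8.84 and 8.93 on the Hi pemetrexed arrays, 8.73, 8.58 and 9.01 on the Lo control arrays and 8.74, 8.72 and 8.72 on the Lo pemetrexed arrays. Between treated cells SOX18 stood at -0.50 ± 0.18 and SOX17 at -0.26 ± 0.11, and neither was called with 12 arrays and both were with 10 (limma adjusted p = 0.0213 and 0.0448). With the replicate block SOX18 was called with 12 arrays too (limma adjusted p = 0.0443). For both genes every treated Lo array lay below every treated Hi array, and for SOX18 the Hi arrays numbered 1 were the highest of all. The third SOXF gene, SOX7, was not called in either fit (-0.16 ± 0.12 between treated cells, 95% interval -0.42 to 0.09).

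**Figure D3:**
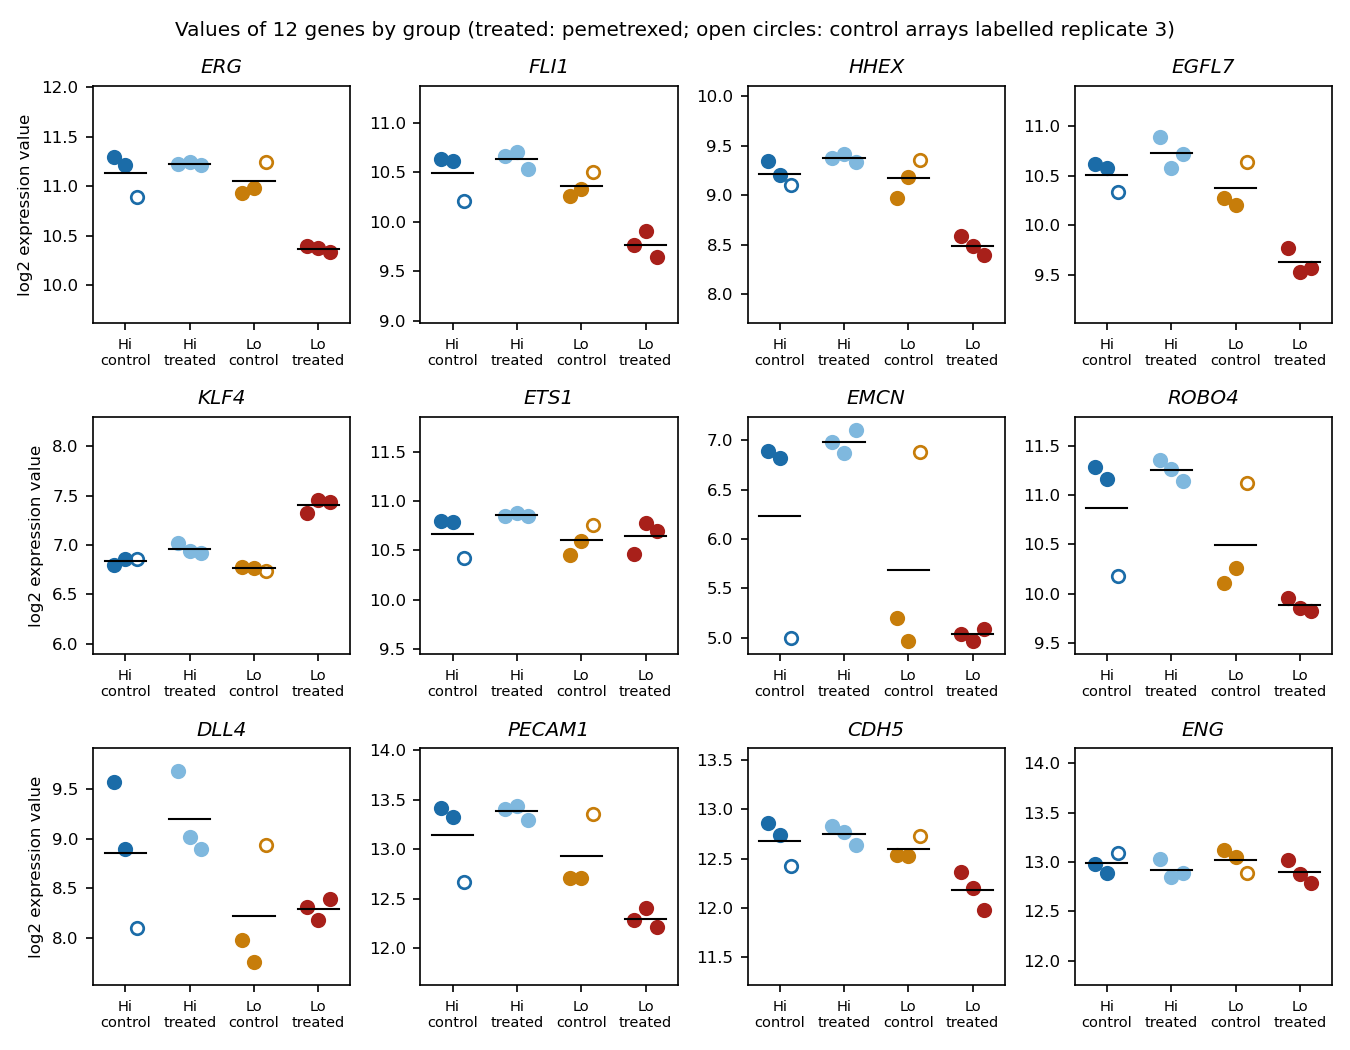
Log2 expression values of 12 endothelial genes in the 4 groups; circles are arrays, black lines are group means of 3 arrays, open circles are the control arrays labelled replicate 3, and each panel has its own axis. ERG, FLI1, HHEX and EGFL7 are lowest on the treated Lo arrays, KLF4 is highest there, EMCN, ROBO4 and DLL4 differ between Lo and Hi controls numbered 1 and 2, and ENG overlaps among all groups.

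Among the 6 junction genes, PECAM1, CDH5 and ESAM were lower in treated Lo than in treated Hi cells, and CLDN5, GJA4 and GJA5 were not called in any comparison. The lower calls are 50% of the junction genes in both fits, where 11% of all genes were lower with 12 arrays and 14% with 10. PECAM1, an adhesion receptor of the lateral cell border, read 13.42, 13.33 and 12.67 on the Hi control arrays, 13.41, 13.44 and 13.30 on the Hi pemetrexed arrays, 12.71, 12.71 and 13.36 on the Lo control arrays and 12.28, 12.40 and 12.21 on the Lo pemetrexed arrays. Leaving the 2 displaced arrays aside, the values formed 3 levels with no overlap: Hi arrays at or above 13.30, Lo controls at 12.71 and treated Lo arrays at or below 12.40. PECAM1 was 2.13-fold lower in treated Lo than in treated Hi cells (limma adjusted p = 0.00194). Between controls PECAM1 stood at -0.67 ± 0.09 with 10 arrays, and it changed by a further -0.41 ± 0.08 with pemetrexed, and with 12 arrays that last change was -0.63 ± 0.20 (limma adjusted p = 0.06). The second probe set of PECAM1, dimmer at 4.77 to 7.57, was also lowest on the 3 treated Lo arrays. On Lo controls 1 and 2 (6.33 and 6.49) it already lay inside the olfactory receptor range, so its fall with pemetrexed cannot be read. The mean of both probe sets, which includes it, changed by -0.99 with pemetrexed in Lo cells (limma adjusted p = 0.0383), so that call carries the same limit. CDH5, the cadherin of endothelial adherens junctions, read 12.86, 12.74 and 12.43 on the Hi control arrays, 12.83, 12.77 and 12.64 on the Hi pemetrexed arrays, 12.54, 12.53 and 12.73 on the Lo control arrays and 12.36, 12.20 and 11.98 on the Lo pemetrexed arrays. The treated Lo arrays were the 3 lowest. CDH5 changed by -0.42 ± 0.12 with pemetrexed in Lo cells (limma adjusted p = 0.0408). The call was lost without Hi control 2, Hi pemetrexed 2, Lo pemetrexed 2 or 3, or any array of the Lo controls (adjusted p up to 0.171). Between treated cells CDH5 differed by -0.57 ± 0.12 and kept its call whichever array was left out.

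ESAM, an immunoglobulin-type adhesion molecule of tight junctions, read 11.19, 11.07 and 10.40 on the Hi control arrays, 11.21, 11.13 and 10.98 on the Hi pemetrexed arrays, 10.45, 10.37 and 11 on the Lo control arrays and 10.41, 10.17 and 10.11 on the Lo pemetrexed arrays. Values in treated Lo cells lay below those in treated Hi cells and overlapped the Lo controls. Lo minus Hi controls was -0.72 ± 0.11 with 10 arrays, while pemetrexed in Lo cells gave -0.18 ± 0.10, which did not pass. Between treated cells it was 1.84-fold lower. CLDN5, the main endothelial claudin, lay between 7.55 and 7.97. Its treated Lo arrays (7.79 to 7.82) lay just above its treated Hi arrays (7.55 to 7.78), with a difference of 0.11 ± 0.09 that did not pass. The connexin gene GJA4 lay between 7.47 and 7.99, and GJA5 between 4.74 and 5.05, inside the olfactory receptor range.

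Among the 13 surface genes, 9 were lower between treated cells with all arrays and 10 with 10 arrays. These are 69.2% and 76.9% of the surface genes, where 11% and 14% of all genes were lower. EMCN, a mucin-like glycoprotein of venous and capillary endothelium, read 6.89, 6.82 and 5.0 on the Hi control arrays, 6.98, 6.87 and 7.10 on the Hi pemetrexed arrays, 5.20, 4.97 and 6.88 on the Lo control arrays and 5.04, 4.97 and 5.09 on the Lo pemetrexed arrays. The values fell into separate sets, 6.82 to 7.10 and 4.97 to 5.20, with Hi arrays in the upper and Lo arrays in the lower set except for Hi control 3 and Lo control 3, each in the other set. With 10 arrays EMCN was 3.42-fold lower in Lo than in Hi controls (limma adjusted p = 2.72e-06), and pemetrexed in Lo cells gave -0.05 ± 0.09. The Lo level lies inside the olfactory receptor range, so a further fall could not have been read. With all arrays the control difference was -0.56 ± 0.49, which did not pass. ROBO4, a receptor that stabilises the endothelial barrier, read 11.28, 11.16 and 10.18 on the Hi control arrays, 11.35, 11.26 and 11.14 on the Hi pemetrexed arrays, 10.11, 10.26 and 11.12 on the Lo control arrays and 9.96, 9.86 and 9.83 on the Lo pemetrexed arrays. On the treated Lo arrays ROBO4 was lowest, and Lo controls 1 and 2 lay far below the Hi arrays other than Hi control 3. The Lo controls were 2.05-fold lower than Hi controls with 10 arrays, and with pemetrexed ROBO4 changed by -0.30 ± 0.09 more (limma adjusted p = 0.0469). ESAM and ROBO4 lie near each other on chromosome 11, with 2 protein-coding genes between them in RefSeq.

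S1PR1, the receptor for sphingosine 1-phosphate that strengthens junctions, read 10.83, 10.82 and 10.01 on the Hi control arrays, 10.79, 10.85 and 10.80 on the Hi pemetrexed arrays, 10.03, 10.08 and 10.73 on the Lo control arrays and 9.89, 9.70 and 9.73 on the Lo pemetrexed arrays. The order of the groups was as for ROBO4. With 10 arrays S1PR1 was 1.71-fold lower in Lo than in Hi controls and changed by -0.28 ± 0.08 with pemetrexed. CLEC14A, a C-type lectin of tumour endothelium that binds MMRN2, read 10.69, 10.89 and 9.95 on the Hi control arrays, 10.83, 11.12 and 11.06 on the Hi pemetrexed arrays, 9.54, 10.00 and 11.09 on the Lo control arrays and 8.57, 9.05 and 9.23 on the Lo pemetrexed arrays. The treated Lo arrays were at 9.23 or below and the treated Hi arrays at 10.83 or above, with Lo controls 1 and 2 between them. It changed by -1.26 ± 0.33 with pemetrexed in Lo cells, and by -0.82 ± 0.18 with 10 arrays. The call with 12 arrays was lost without Lo control 2 or 3 or any 1 treated Lo array (limma adjusted p up to 0.119), and with robust variances or only the Lo arrays in the fit (0.0556 and 0.0557). With 10 arrays the control difference was -1.01 ± 0.20, and the difference between responses passed (-1.04 ± 0.26, limma adjusted p = 0.0439).

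ACVRL1 (ALK1) and ENG (endoglin) form a receptor complex for BMP9, and mutations in either cause hereditary haemorrhagic telangiectasia. ACVRL1 read 12.10, 11.92 and 11.55 on the Hi control arrays, 12.13, 11.99 and 11.92 on the Hi pemetrexed arrays, 11.59, 11.54 and 11.89 on the Lo control arrays and 11.29, 11.34 and 11.06 on the Lo pemetrexed arrays. The 3 treated Lo arrays lay below all 9 others. It was 1.72-fold lower in treated Lo than in treated Hi cells, with -0.44 ± 0.11 between controls and -0.33 ± 0.10 for pemetrexed in Lo cells with 10 arrays, the latter called only with the replicate block. ENG lay between 12.79 and 13.12 on all arrays, and its groups overlapped. Between treated cells ENG stood at -0.03 ± 0.09 (95% interval -0.22 to 0.17).

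MYCT1, a small membrane protein of endothelium, read 12.08, 12.01 and 11.63 on the Hi control arrays, 12.05, 11.98 and 11.97 on the Hi pemetrexed arrays, 11.70, 11.72 and 11.91 on the Lo control arrays and 11.15, 11.06 and 11.28 on the Lo pemetrexed arrays. The treated Lo arrays were the 3 lowest. It changed by -0.61 ± 0.11 with pemetrexed in Lo cells (limma adjusted p = 0.00327). The difference between responses was -0.71 ± 0.15, and lost its call without Lo control 3, Lo pemetrexed 1 or 2 or Hi pemetrexed 2 (limma adjusted p up to 0.0587). CD34, a sialomucin of capillary and progenitor cells, read 7.89, 7.48 and 7.31 on the Hi control arrays, 7.72, 7.56 and 7.68 on the Hi pemetrexed arrays, 7.30, 7.15 and 7.82 on the Lo control arrays and 6.85, 7.02 and 6.48 on the Lo pemetrexed arrays. Treated Lo arrays were again the 3 lowest. The change of -0.64 ± 0.19 with pemetrexed in Lo cells just passed (limma adjusted p = 0.0472) and failed without Hi control 2, any treated Hi array, Lo control 1 or 3, or Lo pemetrexed 1 or 3 (up to 0.19), and under 6 of the 10 other settings (0.0525 to 0.0948). Between treated cells CD34 was 1.82-fold lower and stayed called whichever array was left out.

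CAV1, the coat protein of caveolae, read 13.76, 13.83 and 13.79 on the Hi control arrays, 13.81, 13.85 and 13.80 on the Hi pemetrexed arrays, 13.76, 13.80 and 13.78 on the Lo control arrays and 13.59, 13.61 and 13.51 on the Lo pemetrexed arrays. Its 3 lowest values were those of treated Lo cells, and the other 9 lay between 13.76 and 13.85. This was the smallest called fall, -0.21 ± 0.06 with pemetrexed in Lo cells. It was called without Hi control 3 or Hi pemetrexed 1 or 3, and lost without each of the other 9 arrays (limma adjusted p up to 0.147) and under 5 of the 10 other settings (0.0502 to 0.0951). Between treated cells CAV1 stood at -0.25 ± 0.06, which quantile normalization took to -0.17 (limma adjusted p = 0.0518). STAB1, a scavenger receptor of sinusoidal endothelium, read 10.00, 9.60 and 9.38 on the Hi control arrays, 10.03, 9.57 and 9.79 on the Hi pemetrexed arrays, 9.55, 9.33 and 9.80 on the Lo control arrays and 9.37, 8.91 and 9.15 on the Lo pemetrexed arrays. Treated Lo and treated Hi arrays did not overlap, while treated Lo arrays overlapped the Lo controls. Lo minus Hi in treated cells was -0.65 ± 0.18, and the call was lost without Hi pemetrexed 1 or Lo pemetrexed 2 or 3 (limma adjusted p up to 0.0768). PLVAP, which forms the diaphragms of caveolae and fenestrae, read 8.65, 8.61 and 8.40 on the Hi control arrays, 8.71, 8.57 and 8.52 on the Hi pemetrexed arrays, 8.27, 8.17 and 8.54 on the Lo control arrays and 8.42, 8.30 and 8.36 on the Lo pemetrexed arrays. Here Lo controls 1 and 2 were the lowest arrays, with the treated Lo arrays above them and below the treated Hi arrays. Lo minus Hi was -0.41 ± 0.09 in controls and -0.24 ± 0.07 in treated cells with 10 arrays, both called. The lymphatic hyaluronan receptor LYVE1 (8.13 to 8.92) and CYYR1 (5.58 to 5.91) were not called in any comparison.

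Among the 5 secreted and signalling genes, EGFL7 and MMRN2 fell with pemetrexed in Lo cells in both fits. These are 40% of the 5, where 5.14% of all genes fell with 12 arrays and 5.74% with 10. EGFL7, a secreted factor of the vessel wall and host gene of miR-126, read 10.62, 10.58 and 10.34 on the Hi control arrays, 10.89, 10.58 and 10.72 on the Hi pemetrexed arrays, 10.28, 10.21 and 10.64 on the Lo control arrays and 9.77, 9.53 and 9.57 on the Lo pemetrexed arrays. The treated Lo arrays were at 9.77 or below and all others at 10.21 or above. It changed by -0.75 ± 0.12 (limma adjusted p = 0.00206), and the difference between responses was -0.97 ± 0.18 (limma adjusted p = 0.00935). Its neighbour on chromosome 9, NOTCH1, with 0 protein-coding genes between them in RefSeq, stood at -0.03 ± 0.13. MMRN2, the matrix ligand of CLEC14A, read 11.24, 10.92 and 10.68 on the Hi control arrays, 11.23, 10.95 and 11.01 on the Hi pemetrexed arrays, 10.84, 10.76 and 11.07 on the Lo control arrays and 10.39, 10.42 and 10.02 on the Lo pemetrexed arrays. The 3 treated Lo arrays were the lowest. It changed by -0.61 ± 0.15 with pemetrexed in Lo cells, and the call was lost without Lo control 3 or Lo pemetrexed 3 (limma adjusted p up to 0.0846). RASIP1, an effector of RAS and RAP that keeps vessel lumens open, read 8.98, 8.67 and 8.13 on the Hi control arrays, 8.97, 8.80 and 8.54 on the Hi pemetrexed arrays, 8.39, 8.20 and 8.81 on the Lo control arrays and 7.93, 8.14 and 7.74 on the Lo pemetrexed arrays. Values in treated Lo cells lay below the treated Hi arrays and below the Lo controls. Between treated cells it was 1.79-fold lower, and without Lo pemetrexed 3 the limma adjusted p was 0.0536. ARHGEF15, a signalling gene of endothelium, read 8.95, 8.85 and 8.61 on the Hi control arrays, 9.06, 8.78 and 8.84 on the Hi pemetrexed arrays, 8.63, 8.55 and 8.82 on the Lo control arrays and 8.56, 8.43 and 8.46 on the Lo pemetrexed arrays. As for STAB1, treated Lo arrays overlapped the Lo controls and not the treated Hi arrays. Lo minus Hi in treated cells was -0.41 ± 0.11, a call lost without Hi pemetrexed 1 or Lo pemetrexed 2 or 3 (limma adjusted p up to 0.0618). NOS3, the endothelial nitric oxide synthase, lay between 10.66 and 11.42 and was not called (-0.25 ± 0.17 between treated cells, 95% interval -0.63 to 0.13).

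Of the 7 Notch and ephrin genes, only EPHB4 was lower between treated cells with all arrays, or 14.3%, near the 11% of all genes that were lower. With 10 arrays 3 were lower, or 42.9%, where 14% of all genes were. EPHB4, the receptor that marks veins, read 11.62, 11.23 and 10.69 on the Hi control arrays, 11.68, 11.33 and 11.47 on the Hi pemetrexed arrays, 10.78, 10.68 and 11.50 on the Lo control arrays and 10.36, 10.36 and 10.10 on the Lo pemetrexed arrays. The 3 treated Lo arrays lay below all 9 others. Between treated cells it was 2.32-fold lower in Lo cells (limma adjusted p = 0.00268). With 10 arrays EPHB4 was 1.61-fold lower in Lo than in Hi controls and changed by -0.46 ± 0.13 with pemetrexed. DLL4, the Notch ligand of arteries and tip cells, read 9.58, 8.90 and 8.10 on the Hi control arrays, 9.69, 9.02 and 8.90 on the Hi pemetrexed arrays, 7.98, 7.75 and 8.94 on the Lo control arrays and 8.31, 8.18 and 8.39 on the Lo pemetrexed arrays. Lo controls 1 and 2 were the lowest arrays, and the Hi arrays numbered replicate 1 were the highest. With 10 arrays DLL4 was 2.6-fold lower in Lo than in Hi controls (limma adjusted p = 0.00442), and with pemetrexed in Lo cells it stood at 0.43 ± 0.22, which did not pass without the replicate block. With all arrays it was not called in any of the 5 comparisons. HEY1, a transcriptional target of Notch, read 7.42, 7.45 and 7.08 on the Hi control arrays, 7.40, 7.33 and 7.49 on the Hi pemetrexed arrays, 6.98, 7.10 and 7.69 on the Lo control arrays and 7.05, 7.10 and 6.92 on the Lo pemetrexed arrays. Treated Lo cells overlapped Lo controls 1 and 2 and lay below the treated Hi arrays. Lo minus Hi was -0.39 ± 0.09 in controls and -0.38 ± 0.07 in treated cells with 10 arrays, both called. HEY2, the other arterial HEY gene, read 6.01, 5.95 and 6.26 on the Hi control arrays, 6.07, 6.03 and 5.70 on the Hi pemetrexed arrays, 6.10, 6.16 and 6.06 on the Lo control arrays and 6.16, 6.36 and 6.28 on the Lo pemetrexed arrays. Values in treated Lo cells lay above those in treated Hi cells and overlapped both control groups. It was 1.26-fold higher in treated Lo than in treated Hi cells, a call lost without Hi control 1, Lo control 1 or 2, Hi pemetrexed 2 or 3 or Lo pemetrexed 2 or 3 (limma adjusted p up to 0.188). The call was also lost with the replicate block and all 12 arrays (limma adjusted p = 0.0632), and not with the block in the 10-array fit (limma adjusted p = 0.0083). The values of HEY2 lie inside the olfactory receptor range. The receptors NOTCH1 (10.01 to 10.59) and NOTCH4 (7.59 to 7.88) and the ligand EFNB2 (4.78 to 5.04) were not called in any comparison.

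**Figure D4:**
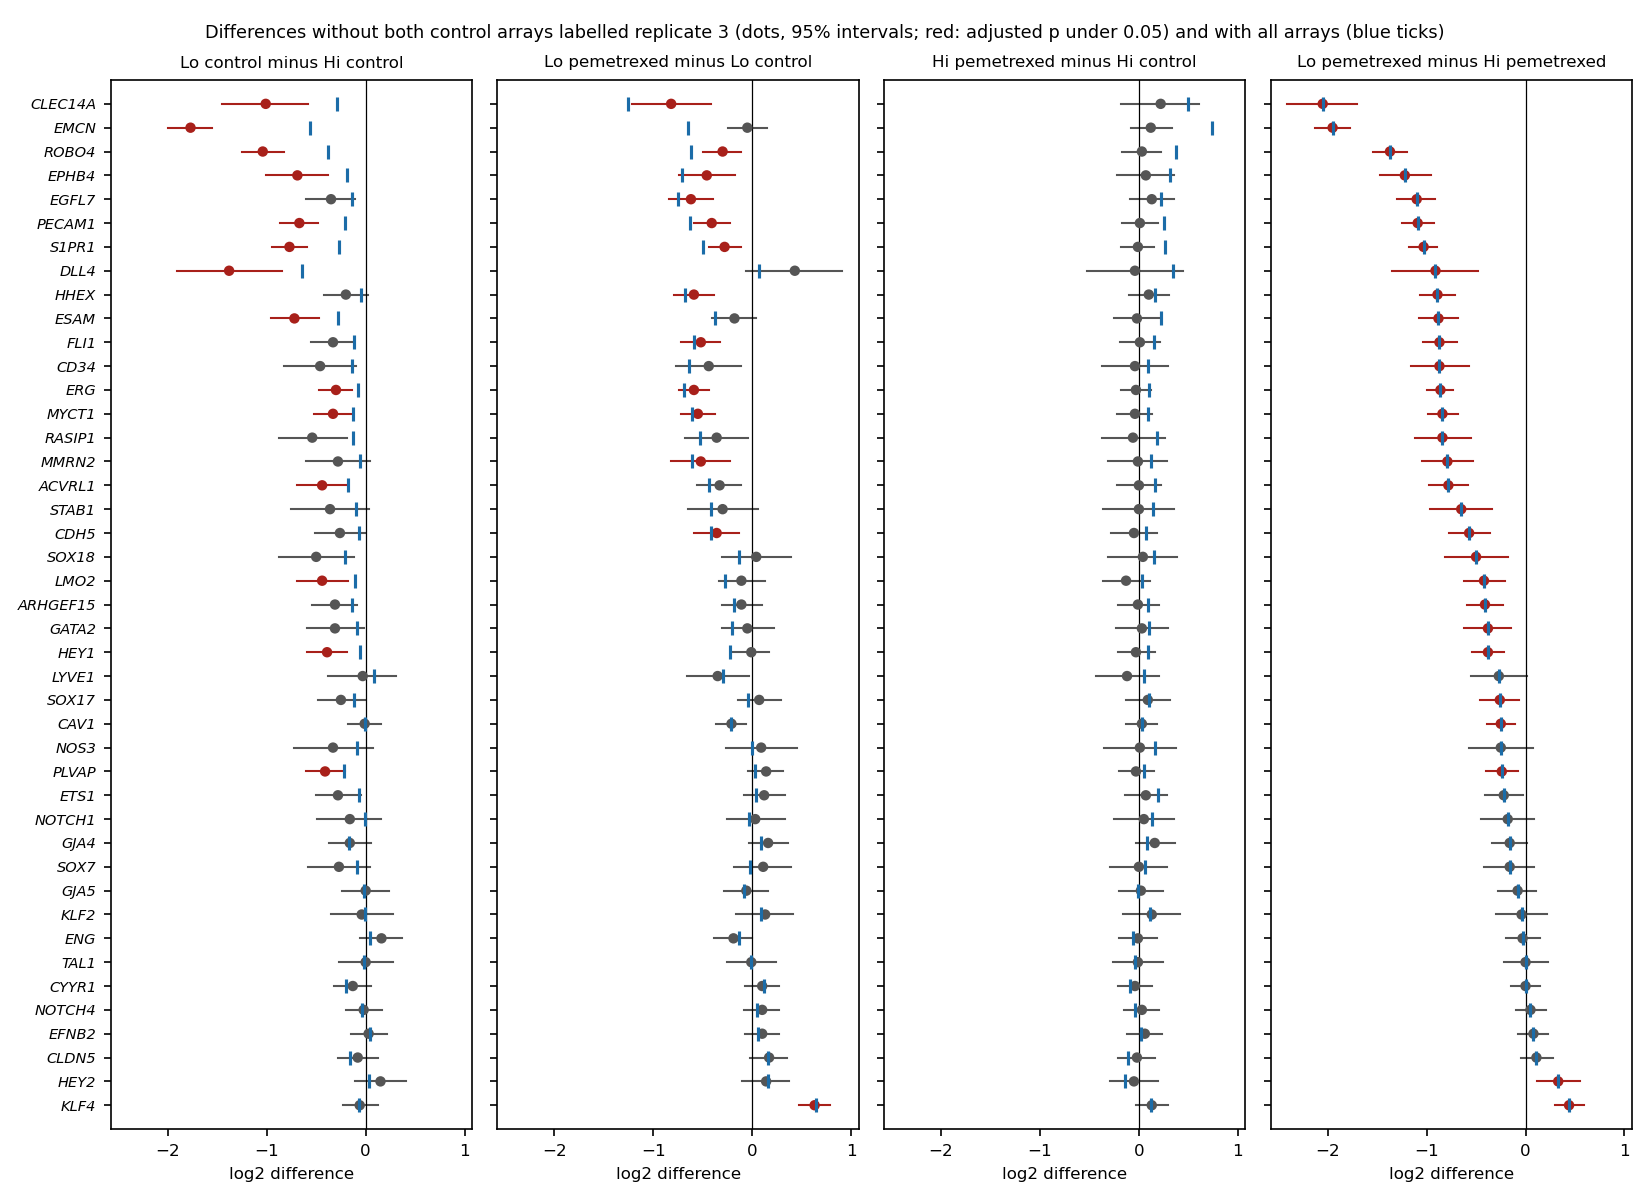
Log2 differences of the 43 endothelial genes in 4 comparisons without both control arrays labelled replicate 3 (dots with 95% intervals, red where the limma adjusted p is under 0.05), with the values from all 12 arrays as blue ticks; genes are ordered by the difference between treated Lo and treated Hi cells. EMCN and DLL4 lie far below 0 between controls and not for pemetrexed in Lo cells, and the panel of pemetrexed in Hi cells has no red dot.

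Which step was the larger, low folate or the drug, was then compared for each gene. The treatment step in Lo cells minus the folate step in controls was tested as a contrast of its own, chosen after the values were seen. With 10 arrays it was called for 4 of the 43 genes, where 3.13% of all genes were called. It was 1.81 ± 0.41 for DLL4 and 0.74 ± 0.16 for ROBO4, so for these genes the folate step was the more negative. For KLF4, which rose with treatment from Lo controls inside the olfactory receptor range, it was 0.69 ± 0.13. It was 1.72 ± 0.17 for EMCN, where the Lo controls already lie inside the olfactory receptor range, so the size of its treatment step is not known and its steps are not compared. For ERG (-0.29 ± 0.13), FLI1 (-0.19 ± 0.17), HHEX (-0.39 ± 0.17) and EGFL7 (-0.27 ± 0.19) it was not called. With all 12 arrays KLF4 alone was called (0.71 ± 0.11), where 1.16% of all genes were.

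RefSeq windows of the 250 bases before the start site were held for 28 of the 43 genes, and were searched on both strands. The ETS motif, taken as CAGGAAG or CCGGAAG, was in 6 of the 28 (21.4%), against 18.6% of all 27305 windows. The SOX motif (ACAATG or ACAAAG) was in 25% against 21.4%, the GATA motif (AGATAA) in 14.3% against 9.4%, the KLF motif (CACACCC) in 10.7% against 6.5% and the RBPJ motif (GTGGGAA) in 3.6% against 5.5%. The motifs differ in letters and do not contain one another. The 6 genes with an ETS match were EGFL7, HHEX, ROBO4, S1PR1, RASIP1 and PLVAP. All 6 were lower in treated Lo than in treated Hi cells with 10 arrays, where 62.8% of the 43 genes and 14% of all genes were. CLEC14A, EMCN, EPHB4, ERG and CD34, whose windows hold no ETS match, were lower as well. ENG, NOTCH1 and KLF2, also without a match, were not called. The share of the 43 includes genes with no window, and a tie between match and difference was not tested. With 12 arrays PLVAP was not called (limma adjusted p = 0.116). The windows of EGFL7, HHEX, ROBO4 and S1PR1 are shown because these had the largest differences between treated cells of the 6. They are from GRCh38.p14 and read 5′ to 3′ on the gene's strand, with the ETS match (on either strand) in capitals. A match is not evidence of binding.
EGFL7 (chr9:136658606-136658855, plus strand): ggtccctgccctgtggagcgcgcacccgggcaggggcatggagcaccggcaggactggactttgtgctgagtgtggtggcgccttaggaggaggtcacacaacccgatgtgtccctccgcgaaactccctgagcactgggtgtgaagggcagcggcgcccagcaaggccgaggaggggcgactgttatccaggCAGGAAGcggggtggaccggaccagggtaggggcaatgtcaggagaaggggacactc
HHEX (chr10:92689705-92689954, plus strand): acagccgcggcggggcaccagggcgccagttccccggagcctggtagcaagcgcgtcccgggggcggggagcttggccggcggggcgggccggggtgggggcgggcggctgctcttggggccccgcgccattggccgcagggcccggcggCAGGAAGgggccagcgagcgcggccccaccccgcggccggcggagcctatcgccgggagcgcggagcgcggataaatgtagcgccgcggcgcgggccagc
ROBO4 (chr11:124897866-124898115, minus strand): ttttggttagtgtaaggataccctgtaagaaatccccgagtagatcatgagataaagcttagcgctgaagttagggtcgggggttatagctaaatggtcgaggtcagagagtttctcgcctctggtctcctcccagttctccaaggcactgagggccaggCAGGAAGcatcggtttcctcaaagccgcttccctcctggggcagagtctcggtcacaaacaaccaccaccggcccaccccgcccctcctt
S1PR1 (chr1:101236769-101237018, plus strand): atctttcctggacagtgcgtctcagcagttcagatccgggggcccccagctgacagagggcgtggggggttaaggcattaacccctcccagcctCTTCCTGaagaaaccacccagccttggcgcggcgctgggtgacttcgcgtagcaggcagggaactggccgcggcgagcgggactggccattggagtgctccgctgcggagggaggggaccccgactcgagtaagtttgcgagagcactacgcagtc
The match lies 57 to 51 bases before the start in EGFL7, 100 to 94 in HHEX, 90 to 84 in ROBO4 and 156 to 150 in S1PR1. The CAGGAAG letters read on the gene's own strand in the first 3 and on the opposite strand in S1PR1.

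Further genes of these pathways were read from lists drawn up by name. Of 20 measured junction partners, 4 were lower and 0 higher between treated cells with all arrays: JUP (plakoglobin, -1.54 ± 0.29), JAM3 (-0.80 ± 0.16), CD99 (-0.94 ± 0.20) and PTPRB, the phosphatase of VE-cadherin (-0.84 ± 0.21). These are 20% of the list, where 22.3% of all genes were called, and with 10 arrays 7 were lower and 1 higher (40%, where 27.7% of all genes were called). With pemetrexed in Lo cells 1 of the 20 fell with all arrays, CGNL1 (-0.47 ± 0.11), where 10.7% of all genes were called. With 10 arrays 6 fell (30%, where 11% of all genes were called): CGNL1, JUP (-0.46 ± 0.12), JAM3, PTPRB, CDH2 (N-cadherin) and VCL (vinculin). Of 17 other Notch pathway genes, 1 was higher and 3 lower between treated cells with all arrays (23.5%) and 1 and 5 with 10 (35.3%), near the shares of all genes. The ligand JAG1 was higher by 1.37 ± 0.20 and rose by 0.80 ± 0.20 with pemetrexed in Lo cells, while the glycosyltransferases MFNG (-0.97 ± 0.18) and LFNG (-0.62 ± 0.10), which modify Notch receptors, and NCSTN (-0.38 ± 0.09), a subunit of gamma-secretase, were lower. JAG1 and DLL4 thus differed in opposite directions between Lo and Hi controls with 10 arrays (0.70 ± 0.08 and -1.38 ± 0.24). Of 15 genes around ALK1 and endoglin, 4 were higher and 4 lower between treated cells in both fits (53.3%, where 22.3% and 27.7% of all genes were called), with SMAD1, the signal transducer of ALK1, at -1.96 ± 0.35, TGFBR1 (ALK5) at 0.87 ± 0.10, SMAD7 at 0.56 ± 0.10 and ID2 at 2.16 ± 0.46. Of 12 other endothelial factors, MEF2C (-0.94 ± 0.18), FOXO1 (-0.45 ± 0.11), PROX1 (-0.55 ± 0.15), MEF2A and NFATC1 were lower, and TBX3 (0.61 ± 0.09) was higher between treated cells with all arrays. These are 50% of the list, where 22.3% of all genes were called. With 10 arrays 6 were lower and 1 higher (58.3%, where 27.7% of all genes were called).

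Marker lists of other cell types were read beside these changes. The 7 endothelial markers were PECAM1, CDH5, ERG, VWF, TIE1, TEK and KDR. Their mean was 11.37 to 11.66 on the Hi arrays other than Hi control 3 (10.61). It was 10.64 and 10.69 on Lo controls 1 and 2, 11.44 on Lo control 3 and 10.20 to 10.33 on the treated Lo arrays. Between treated cells 7 of 7 were lower in both fits, where 11% of all genes were lower with all arrays and 14% with 10. PECAM1, CDH5 and ERG also belong to the endothelial list counted above, so this count is not a separate check of that list. The mean of 14 epithelial and lung carcinoma markers lay between 7.64 and 7.83 on all arrays, that of 10 smooth muscle and fibroblast markers between 6.79 and 7.10, and that of 6 leukocyte markers reached 7.25, with PTPRC, the pan-leukocyte marker, at 4.21 or below. The mean of 4 lymphatic markers, which include PROX1 and LYVE1 of the lists above, was 7.53, 7.45 and 7.37 on the treated Hi arrays and lower, at 7.33, 7.19 and 7.11, on the treated Lo arrays. Between treated cells with all arrays EPCAM (0.38 ± 0.12, inside the olfactory receptor range) was the 1 of the epithelial list that was called (7.14%, where 22.3% of all genes were called). Of the smooth muscle and fibroblast list ACTA2 (0.81 ± 0.15) and CNN1 (0.38 ± 0.10) were higher, or 20% called, near the share of all genes. Of the leukocyte list 0 of 6 were called, with 2 at an unadjusted p under 0.05. With 10 arrays KRT7 (0.53 ± 0.08) and KRT8 (0.44 ± 0.09) were higher in Lo than in Hi controls, and both were also higher between treated cells, as was CD68 of the leukocyte list (0.32 ± 0.07). The part of these differences in those of the endothelial genes was not tested.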

How the data were processed

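Total RNA was isolated with an RNeasy kit, biotin-labelled with an Affymetrix kit and measured on 1 array per sample, per the labels' protocols. The authors deposited RMA log2 values from Partek 6.5, per the submitters' processing notes. The RMA settings are not given in the sources used here. Of 33297 probe sets, 19460 had 1 gene symbol in the platform annotation, and 19429 of their Entrez identifiers were found in RefSeq (GRCh38.p14). They gave 18417 genes. Array medians lay between 7.24 and 7.33. Precision is limited by how few arrays each group has.

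Group means were estimated in limma 3.58.1 under R 4.3.3 (lmFit, then eBayes) from all 12 arrays, leaving 8 residual degrees of freedom, with 5 two-sided contrasts, and Benjamini-Hochberg adjustment over all genes. The fit was tested on simulated data. The p-values rest on biological replicates from a single cell line. Members, lists and tests were chosen with earlier results of these data known. The rule for named genes was to give every list member, with values on every array for those called in either fit, and from each pathway list up to 4 called genes with the smallest p. MEF2A and NFATC1 are named beyond it. Pairing by replicate number was checked by the correlation across genes of deviations from group means. With 12 arrays it was above 0.1 for 11 of 18 same-numbered pairs (-0.656 to 0.514) and for 10 of 36 pairs with different numbers. With 10 arrays it was above 0.1 for 13 of 13 same-numbered pairs (0.115 to 0.543) and for 6 of 24 pairs with different numbers. The blocked counts over the list are therefore given beside the 10-array fit in the comparisons with calls, although deviations of 2 controls in a group mirror each other.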

Additional observations from a re-analysis of the deposited data

Results flagged for a closer look

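The response to pemetrexed differed between Lo and Hi cells for 6 of the 43 endothelial genes by limma's interaction test over all 12 arrays, where 4.81% of all genes were called. The response in Lo cells minus that in Hi cells was -0.78 ± 0.15 for ERG, -0.74 ± 0.17 for FLI1, -0.84 ± 0.14 for HHEX, -0.71 ± 0.15 for MYCT1, -0.97 ± 0.18 for EGFL7 and 0.52 ± 0.09 for KLF4. For KLF4 all 3 treated Lo arrays lay above all Lo controls, where 15.7% of all genes did so. For the other 5 all 3 lay below them, where 14.1% did so. The test that picked these genes includes this difference, so the separation describes the calls and adds no support to them.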

How the results depend on the processing

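Counts of called endothelial genes were recomputed under 10 other settings and with each of the 12 arrays left out. Without both control arrays labelled replicate 3 the count between controls moved from 0 to 14, and with the replicate block in that fit to 24. The replicate block in that fit also moved the interaction from 6 to 10. The step contrast moved from 1 to 4 genes without both arrays. The other settings moved no count by over 1.5 times. With the replicate block and all 12 arrays the counts were 10 for pemetrexed in Lo cells, 22 between treated cells and 6 for the interaction, where 12.2%, 24.4% and 5.4% of all genes were called. With single arrays left out the count ran from 6 to 15 for pemetrexed in Lo cells, from 18 to 27 between treated cells, from 4 to 9 for the interaction, and was 0 for pemetrexed in Hi cells and for the controls. The shares of all genes called ran from 6.35% to 13.9%, 15.5% to 25% and 2.41% to 5.19%, and were 0%. Of 65 gene results called with 12 or with 10 arrays, 640 values under the other settings held 0 changes of sign, 15 lost calls and 61 gained ones. Of the gained calls 26 came from the 10-array fit, where the choice of the 65 results fixed them in advance. Another 26 came from the replicate block in the same 10 arrays, so most gained calls are no separate check. Changes of sign came only between controls with 1 array left out, where ERG reached 0.00, LMO2 0.02, EPHB4 0.03, CLEC14A 0.04 and HEY1 0.01 to 0.08, against -0.30, -0.44, -0.69, -1.01 and -0.39 without both arrays. The fit of only the groups compared was not run for the interaction.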
